A study of Mus musculus with 2 samples.

Results

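The BCL2 family was examined as 10 genes, fixed by name: the pro-survival genes Bcl2, Bcl2l1, Mcl1, Bcl2a1b and Bcl2a1d, the BH3-only genes Bcl2l11, Bid, Bad and Bik, and the effector Bak1. Probes were found through the gene symbols of the platform annotation. Of the 10 genes, 8 had a probe (10 probes, of 20690 probes with a gene symbol for 19318 genes in all), and 7 were above background on both arrays. Bcl2a1b and Bcl2a1d had no probe under those symbols, so the related genes Bcl2a1a and Bcl2a1c are described instead.

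The data are 2 single-colour microarrays of whole liver RNA from mice 24 weeks old. The control array is Twist2-Cre. The other array is Twist2-Cre/A20fl/fl, here called CKO, in which both floxed alleles of A20 are exposed to the same Cre that the control carries. Twist2-Cre is known to act in mesenchymal lineages, but which liver cells it reached was not measured here. How many animals gave each RNA was not stated. With 1 array per genotype there was no replicate, no test and no p-value, and every difference below compares these 2 arrays.

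Proteins of the BCL2 family decide whether the outer membrane of the mitochondrion is opened during apoptosis. Pro-survival members (BCL2, BCL-XL, MCL1 and A1) hold the effectors BAK and BAX in check, and BH3-only members (BIM, BID, BAD and BIK) either block the pro-survival members or activate the effectors directly. In hepatocytes BCL-XL and MCL1 are the main pro-survival proteins, and BID links death receptors of the TNF family to mitochondria. A20, encoded by Tnfaip3, restrains NF-kB, a transcription factor that is known to induce the A1 and BCL-XL genes in other settings.

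The A1 genes are copies of each other on mouse chromosome 9. Part of their promoter sequences is shown so that a reader can see where the copies differ in a stretch that aligns well. The lines give a stretch of 106 bases aligned without gaps in the 4 promoter windows, 5′ to 3′ on the strand of each gene, from RefSeq (GRCm38.p6). Capitals mark the 7 positions where at least 1 copy differs. The stretch was chosen for being alike: aligned bases farther upstream, where the copies matched less well, were cut off. The identities below therefore describe this stretch and not the whole promoters. The places are chr9:89199123-89199228 on the plus strand for Bcl2a1b, chr9:88731851-88731956 on the minus strand for Bcl2a1d, chr9:88956814-88956919 on the plus strand for Bcl2a1a and chr9:114329919-114330024 on the plus strand for Bcl2a1c.
Bcl2a1b: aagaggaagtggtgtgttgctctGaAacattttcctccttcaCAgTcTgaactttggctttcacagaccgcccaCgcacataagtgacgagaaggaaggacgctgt
Bcl2a1d: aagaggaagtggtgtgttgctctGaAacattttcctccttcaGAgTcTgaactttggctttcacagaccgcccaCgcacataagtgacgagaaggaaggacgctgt
Bcl2a1a: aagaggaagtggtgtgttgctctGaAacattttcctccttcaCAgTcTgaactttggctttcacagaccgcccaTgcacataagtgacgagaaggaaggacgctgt
Bcl2a1c: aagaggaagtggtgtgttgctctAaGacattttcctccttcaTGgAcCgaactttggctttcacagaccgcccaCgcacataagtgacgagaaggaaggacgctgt
Bcl2a1b differed from Bcl2a1d at 1 of these 106 bases (99.1% identical) and from Bcl2a1a at 1 (99.1%). Bcl2a1c was the most distant copy, 94.3% identical to Bcl2a1b. The stretch ends 1 base before the start of Bcl2a1a and of Bcl2a1d, 45 before that of Bcl2a1b and 111 before that of Bcl2a1c. These are promoter letters, and how far the transcripts read by the probes differ was not measured here.

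None of the measured members differed by 2-fold between the livers. Of the 7 measured members, 0 reached 2-fold upwards in the CKO liver, where 0.636% of all 14143 measured genes did, and 0 reached it downwards, against 0.0778%. The members' counts were also 0 and 0 in the deposited values (3.69% and 0.997% of all genes), with plain subtraction of the blank mean (4.4% and 0.7%) and against the local background column (3.05% and 1.39%). By sign alone 2 were higher, against 42.2% of all genes, and 5 were lower, against 57.7%. These log2 ratios are of CKO over control on a background-corrected scale with an offset of 50, which draws the ratios of dim genes towards 0, so the deposited intensities (linear units, median 25 on both arrays) are given first for each gene. As a guide to size, ratios of different probes of the same gene had an SD of 0.133 (716 genes).

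**Figure D1:**
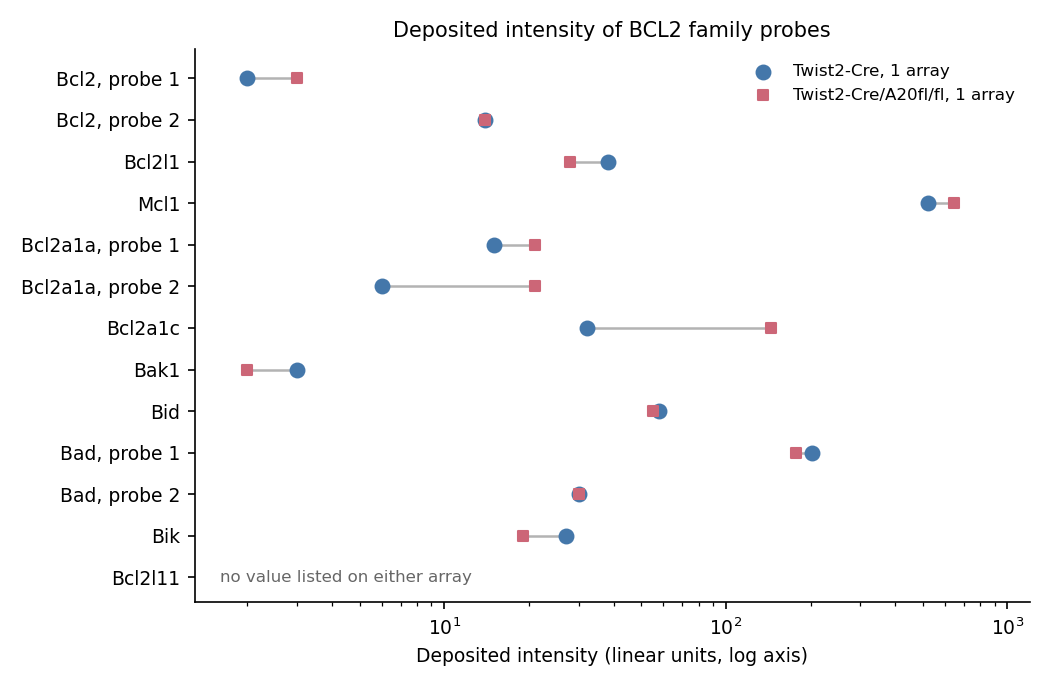
Deposited intensity of each probe of the BCL2 family members and of the A1 copies Bcl2a1a and Bcl2a1c (log axis), as 1 circle for the Twist2-Cre array and 1 square for the Twist2-Cre/A20fl/fl array, joined by a line. Among the members, Bik moves from 27 to 19, Bcl2l1 from 38 to 28 and Mcl1 from 521 to 648. The other member probes lie close together or are dim, and Bcl2l11 has no value on either array. Outside the member list, Bcl2a1c moves from 32 to 145, and Bcl2a1a from 15 to 21 (probe 1) and from 6 to 21 (probe 2).

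Among the pro-survival members, Mcl1 had the largest ratio on the offset scale, above the probe-to-probe SD. Mcl1 (Entrez 17210) encodes a short-lived protein that hepatocytes need for survival. Its deposited intensity was 521 (control) and 648 (CKO), and its spots lay 519 and 542 SDs of the blank spots above the blank mean. The log2 level was 9.38 and 9.72, a ratio of 0.34 (1.27-fold), and 3.95% of all measured genes had a larger ratio. The 500 genes nearest to it in level varied by 0.21 (robust SD), so the Mcl1 ratio was 1 of the larger ones at its level but inside the middle 95% of them. The sign depended on which background was subtracted: 0.44 with plain subtraction of the blank mean and 0.31 in the deposited values, but -0.53 against the local background column, which was itself brighter around the CKO spot (625, against 455 in the control) and followed the spot's own signal over the array (r of log2 values across probes 0.988 and 0.972).

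Bcl2l1 was lower in the CKO liver. Bcl2l1 (Entrez 12048) encodes BCL-XL, which restrains BAK and BAX at the mitochondrion. Its deposited intensity was 38 (control) and 28 (CKO), 1.36-fold lower. The log2 ratio was -0.19 (levels 6.63 and 6.44), larger than the probe-to-probe SD and than the spread of 0.11 among genes of its level, and 91.7% of all genes had a higher ratio. It was below 0 in each of the 11 settings tried, from -0.44 in the deposited values to -0.12 against the local background column. All settings use the same 2 arrays, and for a gene with 1 probe some must repeat the same value. The ratio was again -0.19 with the brightest probe and with no filter on dim probes.

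Bcl2 itself was close to background, and its level did not differ measurably between the arrays. Bcl2 (Entrez 12043), the founding pro-survival gene, is mainly a gene of lymphocytes and bile duct cells in liver. Its 2 probes are annotated to different transcripts of the gene. Probe 1 had deposited intensities of 2 and 3 and lay 2.05 and 2.58 blank SDs above background, barely past the threshold of 2. Probe 2 had 14 on both arrays, 13.4 and 11.6 blank SDs above background. Their log2 ratios were 0.02 and 0.01, and the gene's ratio was 0.01. The deposited ratio of the gene (0.29) and that with plain subtraction (0.51) are larger; the deposited one comes from the step from 2 to 3 in probe 1, since probe 2 had a ratio of 0 there.

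The A1 copies with probes had higher values in the CKO liver than in the control, except that Bcl2a1c did not against the local background column. They were not in the member list, and are given because Bcl2a1b and Bcl2a1d themselves were not measured. The larger difference is that of Bcl2a1c, the copy most distant in the promoter stretch shown. The annotated Bcl2a1c gene is short (114330135 to 114330578, against 88956920 to 88962416 for Bcl2a1a). Whether it makes a working A1 protein was not tested. A1 is a pro-survival protein of leukocytes. Bcl2a1c had a deposited intensity of 32 (control) and 145 (CKO), 4.53-fold higher, and a log2 ratio of 1.32 (levels 6.51 and 7.83); only 0.389% of all genes had a larger ratio. Against the local background column, which was 81.7 around the control spot and 219 around the CKO spot, this ratio was -0.07. Bcl2a1a had 2 probes, both higher: 15 and 21 for probe 1, 6 and 21 for probe 2. The gene's log2 ratio was 0.25, and it was above 0 in all 11 settings, some of which repeat the same value, from 0.11 to 1.33. The A1 genes are a multigene family, and whether these probes also read Bcl2a1b or Bcl2a1d was not tested, so the split of the A1 signal between the copies is uncertain.

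The measured pan-leukocyte, macrophage and monocyte, and T and NK cell markers were higher, in the same direction as the A1 copies. Neutrophil and B cell markers were mixed. All 5 pan-leukocyte markers (Ptprc, Coro1a, Laptm5, Cd52, Cd53) were higher, with a median ratio of 0.89 and a summed deposited intensity of 278 (control) and 914 (CKO). Of 9 macrophage and monocyte markers with a probe, 7 were measured and all 7 were higher (median 0.71, summed 1505 and 3975); Itgam was listed on neither array and Adgre1 on the CKO array only. Of 9 T and NK cell markers, 5 were measured and all 5 were higher (median 0.39, summed 64 and 216); Cd3e was listed on neither array, and Cd3g and Nkg7 on the CKO array only. Of 8 neutrophil markers, 7 were measured, 5 higher and 2 lower (median 0.04, summed 544 and 606), with Mpo listed on the CKO array only. Of the 4 B cell markers with a probe, 3 were measured, 2 higher and 1 lower (median 0.02, summed 57 and 68), and Pax5 was listed on neither array. With the local background column the medians were smaller for the pan-leukocyte (0.32), the macrophage and monocyte (0.21) and the T and NK cell markers (0.05). They were 0.08 for the neutrophil and -0.01 for the B cell markers. Markers of other liver cells had lower summed intensities in the CKO liver. All 4 measured cholangiocyte markers were lower (median -0.19, summed 118 and 79). Of 5 measured endothelial markers 3 were lower and 2 higher (median -0.43, summed 1184 and 786). Of 7 stellate cell and fibroblast markers 5 were higher and 2 lower (median 0.06), while their sum, 1477 and 1045, was mostly that of the matrix gene Dcn, whose ratio was -0.52. Against the local background column the medians were -0.12 for the cholangiocyte, -0.10 for the endothelial and -0.01 for the stellate cell and fibroblast markers. The part of these cells' RNA in the values of the members and of the A1 copies was not tested, and in whole tissue more cells of a type and more RNA per cell cannot be told apart.

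**Figure D2:**
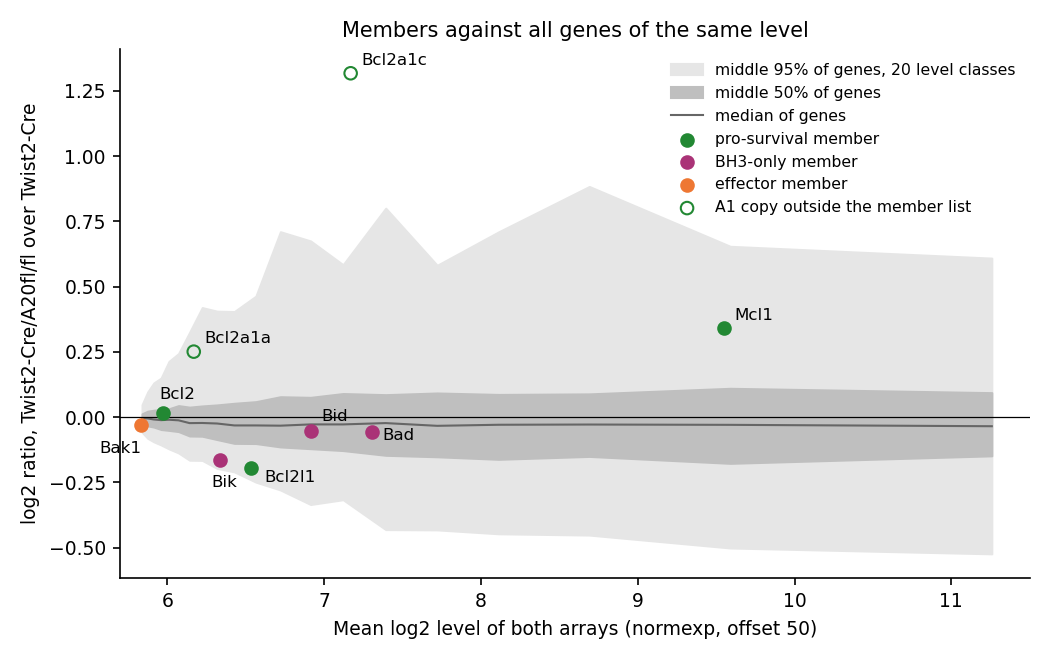
Log2 ratio of CKO over control against the mean log2 level of both arrays for the 7 measured members (filled points, coloured by role) and the A1 copies Bcl2a1a and Bcl2a1c (open points), over bands that hold the middle 95% and 50% of all measured genes in 20 level classes. Mcl1 (0.34) lies inside the wider band, Bcl2l1 (-0.19) and Bik (-0.16) lie low in it, and Bcl2a1c (1.32) lies above it.

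The BH3-only members and the effector Bak1 were near equal or lower in the CKO liver. Bid (Entrez 12122), which carries death receptor signals to mitochondria once cleaved, had deposited intensities of 58 and 55 and a ratio of -0.05. Bad (Entrez 12015), a BH3-only protein controlled by survival kinases, had 2 probes, with 202 and 177 for probe 1 and 30 on both arrays for probe 2. Their ratios were -0.13 and 0.01, and the gene's ratio was -0.06. The differences of Bid and Bad are thus smaller than the probe-to-probe SD. With plain subtraction their signs turned (0.01 and 0.04), but both stayed below the median of all genes (0.08 there, -0.02 on the offset scale). Against the local background column Bid was at 0.25.

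Bik had the ratio farthest below 0 among them on the offset scale. Bik (Entrez 12124) encodes a BH3-only protein that acts largely at the endoplasmic reticulum. Its deposited intensity was 27 (control) and 19 (CKO), 1.42-fold lower. Its log2 ratio was -0.16, larger than the spread of 0.10 among genes of its level, and 88.8% of all genes had a higher ratio. It was below 0 in each of the 11 settings, as Bcl2l1 was, with the same repeats among the settings for its 1 probe.

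Bak1 was barely above background and Bcl2l11 below it. Bak1 (Entrez 12018), the effector that forms pores in the mitochondrial membrane, had deposited intensities of 3 and 2 and lay 3.18 and 2.02 blank SDs above background. Its ratio was -0.03 (0.00 against the local background column), and its deposited ratio of -0.58 is a step of 1 unit. Bcl2l11 (Entrez 12125), the gene of the BH3-only protein BIM, was below background on both arrays (0.751 and 1.22 blank SDs) and had no deposited value, so no ratio is given; a level of Bcl2l11 below the threshold was not detectable on these arrays.

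Set against each other, the ratios of the roles overlapped. The 3 measured pro-survival members had a median ratio of 0.01, with 2 higher and 1 lower, and the 4 measured BH3-only and effector members had a median of -0.06, with 0 higher and 4 lower, where 57.7% of all genes were lower and the median of all genes was -0.02. The medians differed by 0.07, a description of these arrays with no test. The pro-survival ratios span -0.19 to 0.34 and so enclose the whole range of the other roles, -0.16 to -0.03. In the deposited values the medians were 0.29 and -0.30, a difference of 0.59. That difference rests on the dimmest members: with only probes at 10 or more on both arrays, a limit chosen after the values were seen, the medians were 0 and -0.10 and differed by 0.10. Plain subtraction gave a difference of 0.52, with 2 of 3 pro-survival members and 2 of 4 others higher, where the median of all genes was 0.08. The local background column gave -0.10, with the opposite sign: the pro-survival median was -0.12 with 0 of 3 higher, and that of the others -0.02 with 2 of 4 higher.

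**Figure D3:**
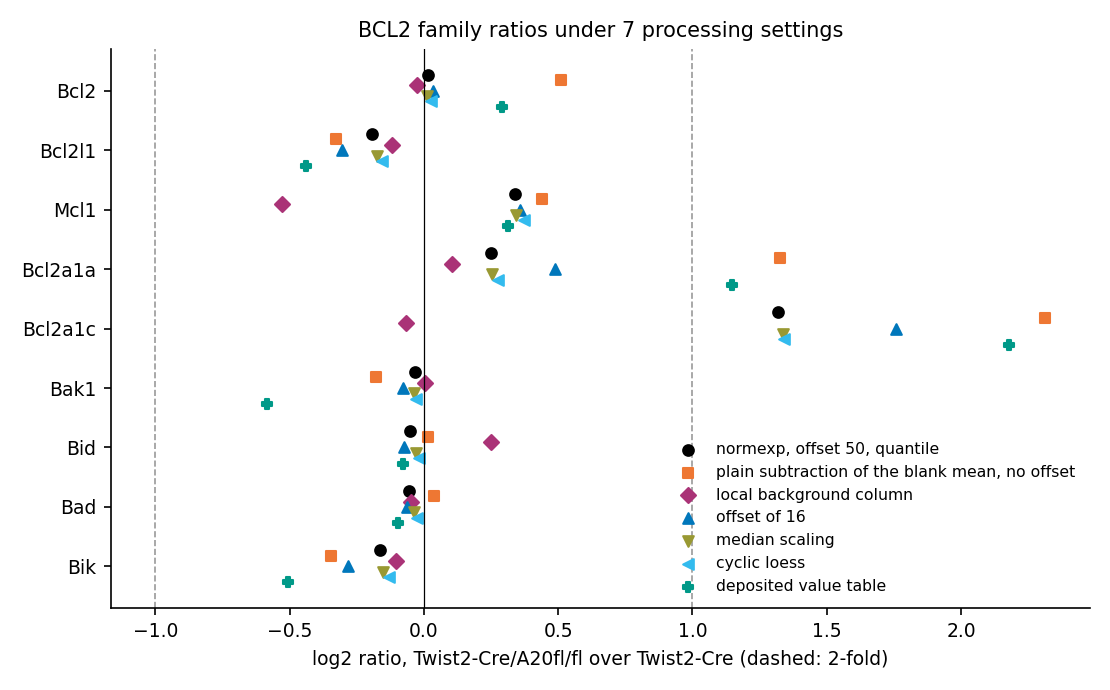
Log2 ratio of CKO over control for the 7 measured members and the A1 copies Bcl2a1a and Bcl2a1c, with 1 symbol for each processing setting; dashed lines mark 2-fold. No member reaches a dashed line in any setting, Bcl2l1 and Bik stay left of 0, Mcl1 crosses to -0.53 against the local background column, and Bcl2a1c spreads from -0.07 to 2.31.

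The promoter of Mcl1 is shown because Mcl1 had the largest ratio with the offset; in the deposited values Bak1 (-0.58), Bik (-0.51) and Bcl2l1 (-0.44) differed more than Mcl1 (0.31), and Mcl1 turned to -0.53 against the local background column. It spans the 250 bases before an annotated start at chr3:95658471-95658720, plus strand, 5′ to 3′, from RefSeq (GRCm38.p6). Capitals mark the 2 matches to a loose form of the NF-kB site, GGG and CC with 5 bases of any kind between them, searched on both strands.
Mcl1: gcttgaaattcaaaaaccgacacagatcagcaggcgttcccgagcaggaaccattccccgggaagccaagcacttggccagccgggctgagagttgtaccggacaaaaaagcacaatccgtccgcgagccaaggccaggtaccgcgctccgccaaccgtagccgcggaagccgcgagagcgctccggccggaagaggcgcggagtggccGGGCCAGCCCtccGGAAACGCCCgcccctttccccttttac
The same letters occur in 50.8% of the 32851 RefSeq promoter windows that run from 250 bases before to 50 after the start. The matches are therefore a description only. They are not particular to Mcl1: windows of Bcl2, Bcl2l1, Bcl2l11, Bak1, Bid, Bad and Bcl2a1b held matches too, and that of Bcl2a1d did not. Of the 9 members with a promoter entry, the interferon-gamma site TTCNNNGAA matched in none of 13 windows, where 8.3% of all windows hold it. Bik was not among the entries.

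Beyond the 10 genes, the wider family showed few large differences outside A1. Of 19 other BCL2 family genes, 18 had a probe and 14 were measured: 8 higher and 6 lower, with a median ratio of 0.05 (-0.08 against the local background column). The shares over all genes were 42.2% higher and 57.7% lower. Bcl2a1c was the only 1 of the 14 past 2-fold on the offset scale, where 0.636% of all genes were 2-fold higher, and in the deposited values 3 were (Bcl2a1a, Bcl2a1c and Pmaip1), against 3.69%. Pmaip1, the gene of the BH3-only protein NOXA, followed with 0.29; its deposited intensities of 3 and 14 are 4.67-fold apart but close to background, and its ratio was 0.00 against the local background column. Then came Bcl2a1a, the BNIP gene Bnip2 (0.12, from 173 to 188) and Bcl2l13 (0.12, from 40 to 47), a mitochondrial member of the family. Against the local background column Bnip2 turned to -0.29. The BH3-only gene Bbc3 had 19 on both arrays.

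The machinery downstream of the family showed small ratios on the offset scale. Of 16 listed genes of the mitochondrial pathway 12 had a probe and 11 were measured, 3 higher and 8 lower with a median of -0.05. Among all genes 42.2% were higher and 57.7% lower. The executioner caspase gene Casp6 was highest at 0.32 (101 and 137), and Diablo, whose protein is released from mitochondria to block inhibitors of apoptosis, was lowest at -0.28 (means of 2 probes, 88.5 and 70.5). In the deposited values the ratio of Diablo, averaged over its 2 probes as log2 values, was larger, -0.79 (1.73-fold lower). With the local background column both signs turned, Casp6 to -0.05 and Diablo to 0.05. The outer membrane channel Vdac3 (-0.12), the flavoprotein Aifm1 (-0.10) and Casp2 (-0.06) followed. Vdac3 was at -0.80, Casp2 at -0.20 and Aifm1 at 0.34 with the local background column.

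Inhibitor of apoptosis genes included another large difference. Of 6 genes 5 were measured, 4 higher and 1 lower with a median of 0.21 (-0.17 against the local background column), and 0 of them reached 2-fold on the offset scale. By sign, 42.2% of all genes were higher and 57.7% lower. Birc5 encodes survivin, which is needed in mitosis as well as named for apoptosis. It had deposited intensities of 13 and 69, 5.31-fold higher in the CKO liver, and a log2 ratio of 0.98. Birc3, an NF-kB target that ubiquitinates proteins of the TNF receptor complex, was at 0.26 (42 and 60), Naip2 at 0.21 (37 and 50), Birc6 at -0.19 (96 and 79) and Birc2 at 0.02. Against the local background column Birc5 turned to -0.20 and Birc2 to -0.17.

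Genes that act on BCL2 family proteins were split evenly on the offset scale. Of 19 listed genes 16 had a probe and were measured, 8 higher and 8 lower, with a median of 0.00. Of all genes, 42.2% were higher and 57.7% lower. In the deposited values 6 of the list were higher, 9 lower and 1 equal. The co-chaperone gene Bag3 differed most, at 74 (control) and 41 (CKO), a ratio of -0.47, and -0.01 against the local background column. The 14-3-3 gene Ywhae (-0.22, 584 and 479), the BCL2-binding co-chaperone Bag1 (-0.17, 824 and 696) and the stress gene Ddit3 (-0.16, 128 and 111) were lower, and the kinase gene Pim3 was higher (0.19, 104 and 124). Against the local background column Bag1 was at -0.48 and Pim3 at 0.29, while Ywhae turned to 0.12 and Ddit3 to 0.05.

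**Figure D4:**
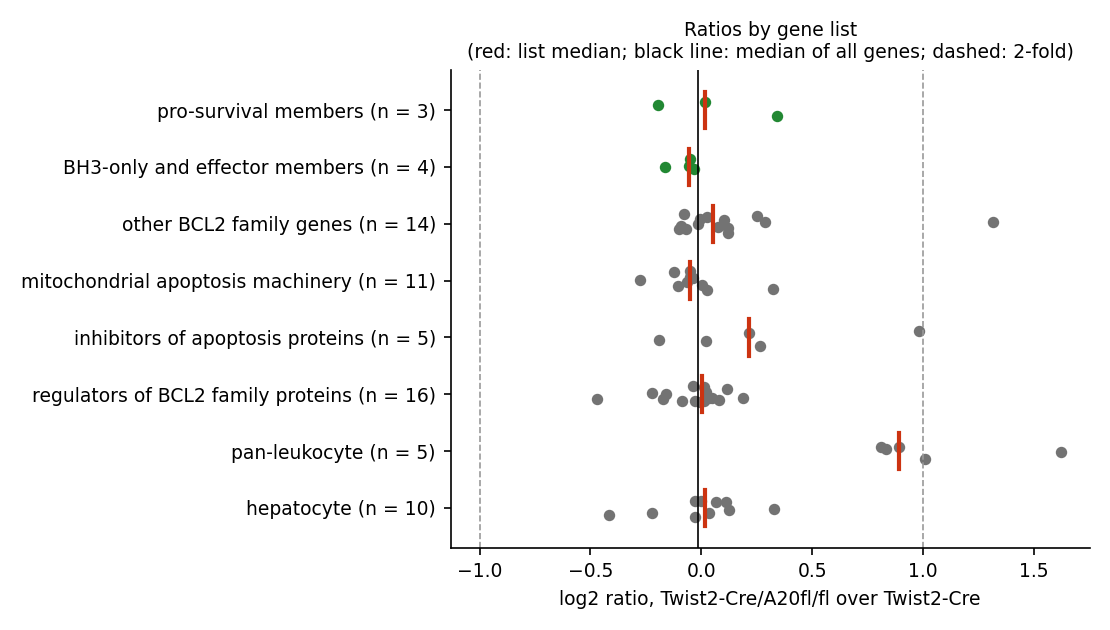
Log2 ratio of CKO over control for each measured gene of the lists, the members first (green), with the list median as a red bar, the median of all genes (-0.02) as a black line and 2-fold as dashed lines. The members and the pathway lists gather near 0 with Bcl2a1c and Birc5 to the right, while the 5 pan-leukocyte markers all lie above 0.81.

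The tissue label and the targeted gene were checked on the same arrays. The 10 hepatocyte markers were all above background on both arrays, with summed deposited intensities of 185483 and 171438 and a median ratio of 0.02. Tnfaip3 had deposited intensities of 41 and 38 and a ratio of -0.07; the part of the transcript its probe reads is not known, so this value does not check the deletion. The blank mean was 67.2 (SD 1.17) for the control and 69.3 (SD 1.45) for CKO. Over all genes, 90 were at least 2-fold higher and 11 lower on the offset scale, 522 and 141 in the deposited values, and 432 and 197 against the local background column, and having 1 array per genotype limits the precision of each.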

How the data were processed

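Total liver RNA was labelled with Cy5 and hybridised to single-colour arrays, 1 per genotype named in the labels. Per the file headers, scanner tables give a median intensity for every spot and for the background around it. The deposited value table holds intensity on a linear scale, made by the authors in a way not stated; it followed the spot intensity linearly (slope 0.859 control, 0.825 CKO). No source used here names the array software.

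Intensities were corrected with normexp (limma 3.58.1, R 4.3.3) against the mean of the 384 blank spots with an offset of 50, then quantile-normalized and log2-transformed; the local background column was not used because it carries spot signal. Spots flagged by the scanner (4 and 0) entered the normalization and were left out afterwards. A probe was above background past the blank mean plus 2 SD (69.5 and 72.2), and a gene when any probe was. Probes of a gene were averaged as log2 values. Of 23473 gene probes 20690 had 1 symbol, 0 several and 2783 none. The procedure was tested on simulated data with changes set only in probes brighter than the median, so the dim members are not covered. Genes were named by rule: all 10 members, Tnfaip3, and the 5 largest absolute ratios in each pathway list, whatever their size; with 2 arrays no gene was sought for a like pattern. Bbc3, and the markers by name, fall outside that rule. Members and lists were chosen with earlier results of these data known, and so support nothing independently.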

Additional observations from a re-analysis of the deposited data

How the results depend on the processing

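Results were recomputed under 8 planned settings and 2 chosen after seeing the data (genes listed on both arrays of the deposited table, and deposited values at 10 or more). Members past 2-fold stayed at 0 in both directions in all of them. The pro-survival median moved from 0.01 to 0.44 with plain subtraction and 0.29 in the deposited values, and the BH3-only and effector median from -0.06 to -0.30 in the deposited values; with deposited values at 10 or more these were 0 and -0.10. Against the local background column the medians were -0.12 and -0.02. Mcl1 turned to -0.53 against the local background column. Genes past 2-fold, 90 higher and 11 lower, became 622 and 99 with plain subtraction, 432 and 197 with the local background column, 181 and 19 with an offset of 16, 522 and 141 in the deposited values, and 234 and 38 in those at 10 or more; apart from the offset, the cause was not tested. Signals within a few blank SDs of background (Bak1, Bcl2 probe 1, Bcl2l11) set the limit for those genes. No paired analysis was possible because each genotype has 1 array.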
